A study of Mus musculus with 6 samples.

Results

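The oligoadenylate synthetase (OAS) family and the sensors of double-stranded RNA were followed here through 10 genes, Oas1a, Oas1g, Oas2, Oas3, Oasl1, Oasl2, Ddx58, Ifih1, Dhx58 and Tlr3, in the jejunum of irradiated mice. Every array probe that the platform annotation maps to these genes, by a current or an earlier symbol, was taken, which gave 24 of 45281 probes, for 10 of the 19057 genes the annotation names. Of these, 16 probes of 9 genes were detected on at least 3 of the 6 arrays and were tested, among 19099 tested probes in all. The genes were selected on the measured contrast between the groups of these same arrays, so all values of that difference are given as a description.

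The mice were 6 C57BL/6J males of 8 weeks, whose jejunum RNA was measured after all had been exposed to 9 Gy total body irradiation (TBI). Immediately afterwards 3 mice received enhanced green fluorescent protein (EGFP) by intraperitoneal injection and 3 received NeuroD-EGFP, both at 0.1 mM, and tissue was collected at 12 h. NeuroD is a transcription factor of the basic helix-loop-helix class, and its fusion to EGFP was purified from bacteria. No unirradiated and no uninjected mouse was among the arrays, so the values compare 2 irradiated groups only. Each mouse was hybridized to 1 Illumina Mouse WG-6 array, which reads transcripts by probes on beads, and the number of arrays limits the precision. The values below are background-corrected, quantile-normalized log2 intensities, and every difference is NeuroD-EGFP minus EGFP.

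Oligoadenylate synthetases bind double-stranded RNA and make short oligoadenylates, which act as second messengers of antiviral defence. Ddx58 (RIG-I) and Ifih1 (MDA5) are cytoplasmic helicases that bind viral RNA and signal through the adaptor Mavs, Dhx58 (LGP2) is a relative of both that lacks the signalling domains, and Tlr3 senses double-stranded RNA in endosomes. Most of these genes are themselves induced by interferons, through the factor ISGF3, which holds Stat2 and Irf9, binding an interferon-stimulated response element (ISRE) in the promoter.

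Promoter sequences from RefSeq (build GRCm38.p6), 250 bases before to 50 after the annotated start, were matched for 8 of the 10 genes. Oas2 and Dhx58 were not matched. Both strands were searched for the core of the ISRE, GAAANNGAA, and 5 of the 8 promoters held it, against 8.56% of all 32851 promoters in the table. The 5 promoters follow, since they show where the cores lie and how alike the Oas1 promoters are. Capitals mark the ISRE core matches.
Oas1a: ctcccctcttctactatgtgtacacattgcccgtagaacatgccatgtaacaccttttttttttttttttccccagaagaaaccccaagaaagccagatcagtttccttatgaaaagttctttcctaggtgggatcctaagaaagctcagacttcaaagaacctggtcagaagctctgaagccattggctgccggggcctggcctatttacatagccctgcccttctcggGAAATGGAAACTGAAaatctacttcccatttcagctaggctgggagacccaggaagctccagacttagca
Oas1g: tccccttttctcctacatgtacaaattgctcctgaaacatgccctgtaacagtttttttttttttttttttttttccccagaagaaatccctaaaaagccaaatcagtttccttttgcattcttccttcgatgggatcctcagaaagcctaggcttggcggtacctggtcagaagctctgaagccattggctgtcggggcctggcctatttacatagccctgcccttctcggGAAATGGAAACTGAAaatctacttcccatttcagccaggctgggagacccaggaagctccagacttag
Oas3: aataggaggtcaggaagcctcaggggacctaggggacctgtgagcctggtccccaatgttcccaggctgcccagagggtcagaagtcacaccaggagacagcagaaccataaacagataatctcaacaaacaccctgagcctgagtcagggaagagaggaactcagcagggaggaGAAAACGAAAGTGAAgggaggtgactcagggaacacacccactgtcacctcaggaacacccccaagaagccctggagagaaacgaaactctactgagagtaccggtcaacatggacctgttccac
Ddx58: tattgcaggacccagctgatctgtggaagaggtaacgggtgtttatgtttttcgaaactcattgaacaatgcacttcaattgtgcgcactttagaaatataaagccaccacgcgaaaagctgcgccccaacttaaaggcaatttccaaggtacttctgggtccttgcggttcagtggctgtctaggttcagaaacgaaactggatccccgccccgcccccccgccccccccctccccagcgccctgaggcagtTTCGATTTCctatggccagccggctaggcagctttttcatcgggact
Ifih1: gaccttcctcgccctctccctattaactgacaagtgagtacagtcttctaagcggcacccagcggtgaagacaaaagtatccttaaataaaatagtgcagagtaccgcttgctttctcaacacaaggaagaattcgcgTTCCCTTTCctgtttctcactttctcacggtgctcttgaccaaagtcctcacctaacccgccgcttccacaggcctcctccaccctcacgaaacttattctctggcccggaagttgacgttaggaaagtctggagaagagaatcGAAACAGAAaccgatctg
These windows lie at chr5:120907476-120907775 (Oas1a), chr5:120887564-120887863 (Oas1g), chr5:120777610-120777909 (Oas3), chr4:40239776-40240075 (Ddx58) and chr2:62646206-62646505 (Ifih1), all on the minus strand. In Oas1a, Oas1g and Oas3 a pair of cores overlapped by 3 bases and formed a run of 15 bases. The run was GAAATGGAAACTGAA in both Oas1 genes and GAAAACGAAAGTGAA in Oas3. With the start counted as 1 and the base before it as -1, the run spanned -20 to -6 in Oas1a, -18 to -4 in Oas1g and -75 to -61 in Oas3. Ddx58 had 1 core on the opposite strand at 4 to 12, and Ifih1 had 1 on the opposite strand at -112 to -104 and 1 at 33 to 41. Over the whole window Oas1a and Oas1g were identical at 261 of 306 aligned positions (85.3%), with 12 gap positions and an unbroken shared run of 73 bases. Their transcripts are close copies, so a probe for either Oas1 gene may read both.

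**Figure D1:**
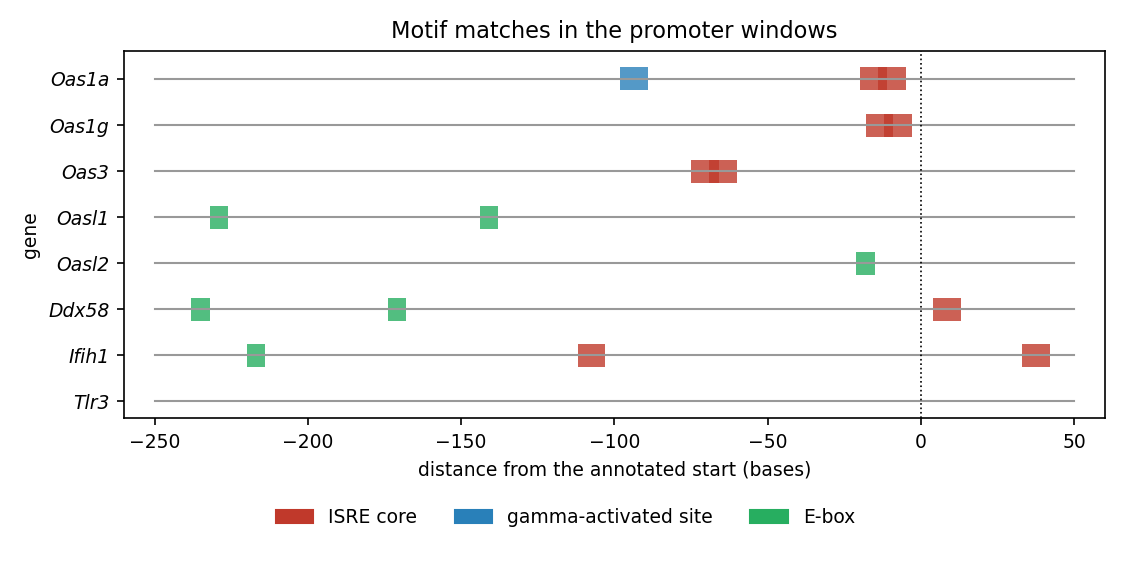
Positions of motif matches in the promoter windows of the 8 matched genes, plotted as distance in bases from the annotated start (dotted line), with the ISRE core in red, the gamma-activated site in blue and the E-box in green. The ISRE core appears in Oas1a, Oas1g, Oas3, Ddx58 and Ifih1, close to the start in both Oas1 genes, and Tlr3 has no match.

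The gamma-activated site TTCNNNGAA was found in 1 of the 8 promoters, that of Oas1a, and in 8.3% of all promoters. The E-box CANNTG, the general recognition sequence of basic helix-loop-helix factors, was found in 4 of the 8 (Oasl1, Oasl2, Ddx58 and Ifih1) and in 72.3% of all promoters. Tlr3 had none of the 3 motifs in its window. A match describes the letters only, and the absence of one says nothing about a factor. In the gene table the OAS genes lie in 2 places on chromosome 5. Oasl2 and Oasl1 are neighbours, and Oas2, Oas3, Oas1e, Oas1c, Oas1f, Oas1h, Oas1g, Oas1a and Oas1d follow each other after 60 other protein-coding genes.

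Before the member values, 2 of the arrays need description. EGFP mouse 3 stood apart in markers of several cell types, with a log2 intensity of 4.56 for Lct (lactase) against 12.14 to 13.26 in the other mice, and 11.17 for Apoa4 against 14.46 to 14.66. Averaged over the 9 tested enterocyte markers of a list of 10, its level relative to the mean of the 6 mice was -1.42, against 0.22 to 0.43 in the others. In that list, Sis (sucrase-isomaltase) stood at 14.38 to 14.66 and Apoa1 at 14.33 to 14.53 in all 6 mice. Vil1, Anpep and Cdh17 read 13.64, 14.50 and 10.71 in EGFP mouse 3 and were not low there. Alpi read 10.85 in EGFP mouse 3 against 11.72 to 13.32 in the others. Lct was detected in 5 mice, Fabp1 read 4.97 to 7.81 and was detected in 5 mice, and Fabp2 was detected in at most 2. Averages of other lists also set EGFP mouse 3 apart, with smooth muscle markers at 0.92 against -0.74 to 0.16 in the other mice. Goblet cell markers averaged 0.55 against -0.44 to 0.14, and neutrophil markers 0.39 against -0.57 to 0.21. Muc2, Tff3, Clca1 and Agr2 were highest in EGFP mouse 3, but the goblet cell marker Fcgbp was lowest there at 7.33. Among neutrophil markers, each detected in at most 4 mice, S100a8 and S100a9 were highest there. Cxcr2 was lowest there at 5.26, and Csf3r read 5.39, within the range of the other mice. Enteroendocrine markers averaged -0.97 in EGFP mouse 3, against -0.17 to 0.40 in the other mice. Chga, Chgb, Cck and Gip were lowest in EGFP mouse 3, whereas Sct was highest there at 12.20. EGFP mouse 1 stood apart in the members themselves, as described next. Between 18271 and 20408 probes were detected per array, and the 75th percentile of the deposited intensity ranged from 80.3 to 122.

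All 16 tested member probes had their highest value in EGFP mouse 1, where 19.8% of all tested probes did. Relative to the mean of the 6 mice, the 9 genes, each by its brightest tested probe, averaged 1.35, 0.21 and -0.26 in EGFP mice 1 to 3 and -0.28, -0.41 and -0.61 in NeuroD-EGFP mice 1 to 3. EGFP mouse 3 was therefore level with NeuroD-EGFP mouse 1, and the 3 NeuroD-EGFP mice lay within a narrower span than the 3 EGFP mice. In EGFP mouse 1 the median member gene stood 1.40 above the mean of EGFP mice 2 and 3, a gap exceeded by 1.03% of all tested probes. The 5 tested OAS genes averaged 1.67, 0.26 and -0.25 with EGFP and -0.38, -0.50 and -0.80 with NeuroD-EGFP. The 3 RIG-I-like receptors averaged 1.19, 0.16 and -0.33, and then -0.22, -0.33 and -0.48. The OAS genes and the receptors put the mice in the same order except that EGFP mouse 3 ranked above every NeuroD-EGFP mouse among the OAS genes and below NeuroD-EGFP mouse 1 among the receptors.

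**Figure D2:**
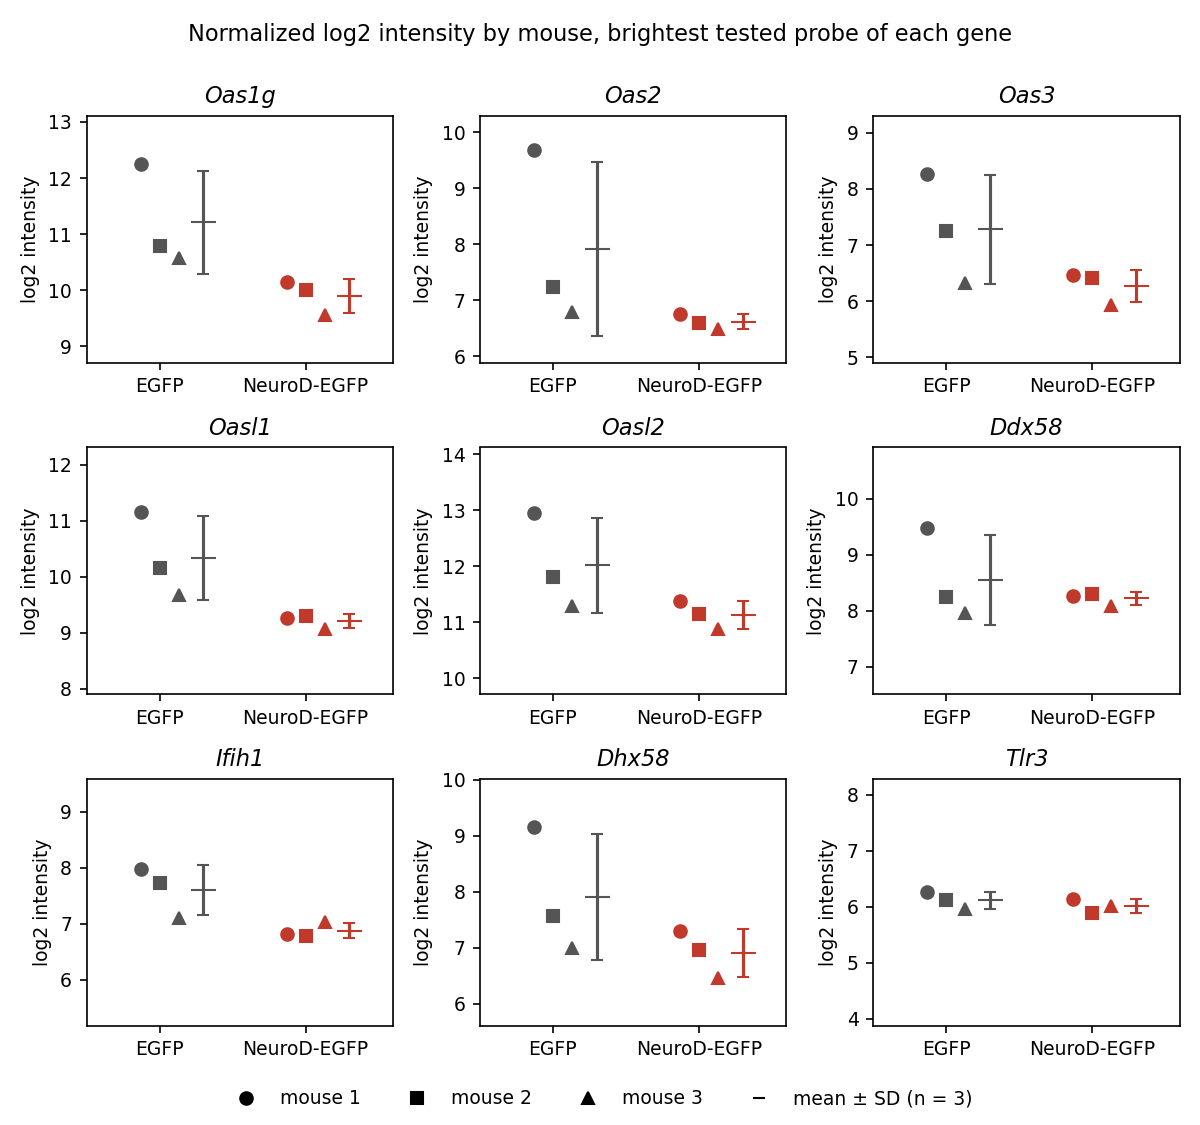
Normalized log2 intensity of the brightest tested probe of each member gene in each mouse, with EGFP in grey, NeuroD-EGFP in red, symbols for mice 1 to 3, and horizontal and vertical bars for the mean ± SD (n = 3). EGFP mouse 1 is highest in all 9 panels, and in Oas1g, Oas2, Oasl1 and Ifih1 every NeuroD-EGFP mouse lies below every EGFP mouse.

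All 16 tested member probes had a lower mean with NeuroD-EGFP, and the median difference of the 9 genes was -0.99, beside a median of 0.0047 over all tested probes, 49.2% of which had a negative difference. None of the 16 passed an adjusted p of 0.05 from limma, and 0% of all tested probes did. The members' adjusted p-values ranged from 0.917 to 0.958, and the smallest of any probe was 0.405. At an unadjusted limma p under 0.05, 6 of the 16 member probes were lower, where 2.54% of all tested probes were lower at that threshold. These were probes of Oas1g, Oasl1 and Ifih1 only, and probes of one gene are not independent. Applied to these values, the methods' t-test put 0 of the 16 under that unadjusted threshold, 1061 of the 19099 tested probes under it, and none past it after adjustment. In 7 member probes, of Oas1g, Oas2, Oasl1 and Ifih1, every NeuroD-EGFP mouse lay below every EGFP mouse, and 5.51% of all tested probes showed that separation. In a design of this size the smallest two-sided p of an exact permutation test is 0.1. Without EGFP mouse 1 the median difference of the 9 genes was -0.41, with 8 of them negative, and without EGFP mouse 3 it was -1.45. In this bulk tissue, fewer cells that carry a transcript and less of it per cell cannot be told apart.

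Oas1g encodes one of the catalytically active OAS1 enzymes of the mouse. Its brightest probe read 12.26, 10.79 and 10.58 in EGFP mice 1 to 3 and 10.14, 9.996 and 9.55 in NeuroD-EGFP mice 1 to 3. The groups did not overlap, and EGFP mouse 1 stood clear of the other 5 mice. The EGFP mean was 2.48-fold the NeuroD-EGFP mean, a difference of -1.31 (standard error 0.43), and -0.78 without EGFP mouse 1. The second tested Oas1g probe read 11.16, 9.48 and 9.75, then 8.98, 8.86 and 8.71, again without overlap, a difference of -1.28 (standard error 0.41). It placed EGFP mouse 3 above EGFP mouse 2, where the first probe had the reverse. The other 3 Oas1g probes were detected in at most 2 mice of a group and were not tested. Among these, 1 was detected in 2 NeuroD-EGFP mice and in no EGFP mouse, with means of 5.40 and 5.09 respectively. Each of the others was detected in 1 EGFP mouse and in no NeuroD-EGFP mouse.

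Oas1a, the neighbouring gene whose promoter was aligned with that of Oas1g, was read by 1 probe, which was detected in 2 EGFP mice and in no NeuroD-EGFP mouse and was not tested. Its deposited intensities were 108, 37.9 and 18.8 with EGFP and 19.99, 11.8 and 15.1 with NeuroD-EGFP. EGFP mouse 1 was again the highest, and EGFP mouse 3 lay below NeuroD-EGFP mouse 1.

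Oas2, the middle-sized synthetase with a duplicated OAS unit, read 9.69, 7.25 and 6.80 with EGFP and 6.76, 6.60 and 6.49 with NeuroD-EGFP. The groups did not overlap, but EGFP mouse 3 and NeuroD-EGFP mouse 1 were nearly equal and most of the difference of -1.29 (standard error 0.68) came with EGFP mouse 1. Without that mouse the difference was -0.40, and without EGFP mouse 3 it was -1.85. Its excess in EGFP mouse 1 over the mean of the other EGFP mice, 2.66, exceeded that of every other tested member probe.

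Oas3, the large synthetase with a triplicated OAS unit, read 8.27, 7.25 and 6.32 with EGFP and 6.46, 6.41 and 5.93 with NeuroD-EGFP. EGFP mouse 3 lay below 2 of the 3 NeuroD-EGFP mice, so the groups overlapped. The difference was -1.01 (standard error 0.46), and -0.52 without EGFP mouse 1. Another Oas3 probe was detected in no mouse.

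Oasl1, an OAS-like protein that lacks synthetase activity and in mice represses translation of Irf7, read 11.15, 10.16 and 9.68 with EGFP and 9.27, 9.30 and 9.06 with NeuroD-EGFP. No NeuroD-EGFP mouse reached the lowest EGFP mouse. The difference was -1.12 (standard error 0.35), a 2.17-fold higher mean with EGFP, and -0.71 without EGFP mouse 1. Its other tested probes gave -1.22 (standard error 0.40) and -0.94 (standard error 0.35), both without overlap, and Oasl1 was the only member with 3 tested probes that all separated the groups.

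Oasl2, the mouse OAS-like protein that keeps synthetase activity, read 12.95, 11.81 and 11.30 with EGFP and 11.38, 11.15 and 10.88 with NeuroD-EGFP. NeuroD-EGFP mouse 1 lay just above EGFP mouse 3. The difference was -0.88 (standard error 0.40), and -0.41 without EGFP mouse 1. Another Oasl2 probe read 9.78, 8.07 and 7.31, then 7.66, 7.63 and 7.34, with all 3 NeuroD-EGFP mice above EGFP mouse 3 and a difference of -0.85 (standard error 0.56) that was -0.15 without EGFP mouse 1. The remaining Oasl2 probe, detected in 3 EGFP mice and 1 NeuroD-EGFP mouse, gave -0.89 (standard error 0.41).

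**Figure D3:**
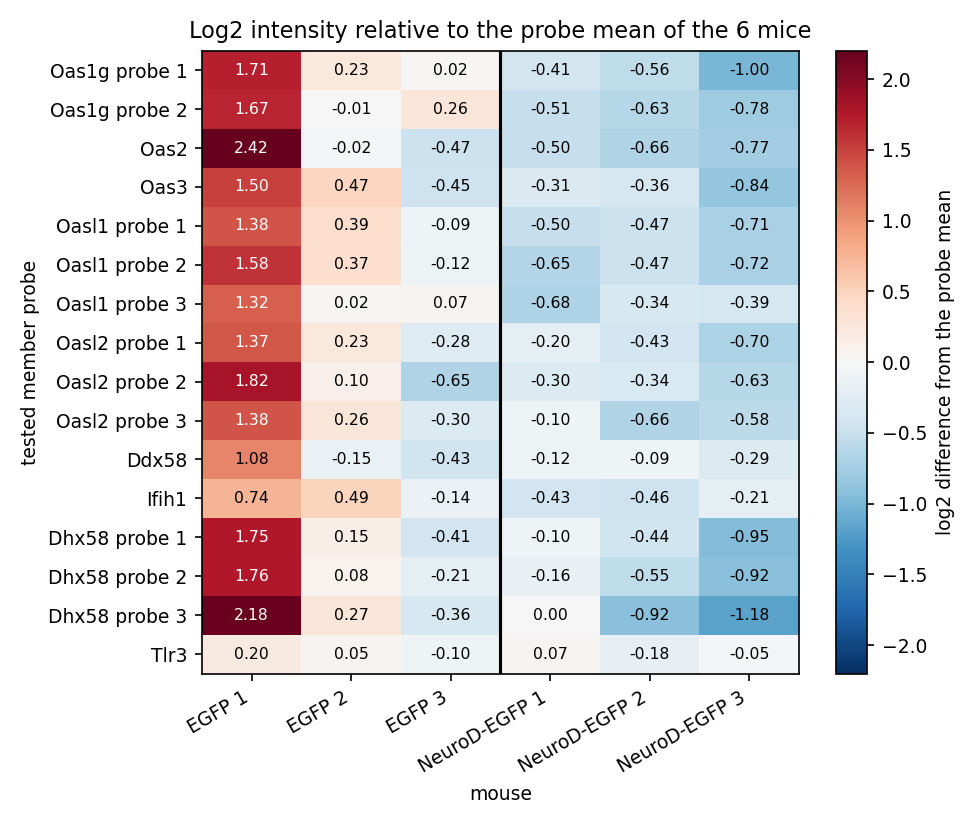
Log2 intensity of each tested member probe in each mouse relative to that probe's mean over the 6 mice, with red above and blue below the mean and the black line between the 3 EGFP and the 3 NeuroD-EGFP mice. The EGFP 1 column is the highest in every row, from 0.20 for Tlr3 to 2.42 for Oas2, and probes of one gene show like patterns.

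Ddx58, whose product RIG-I recognizes RNA with a terminal triphosphate, read 9.47, 8.24 and 7.96 with EGFP and 8.27, 8.30 and 8.09 with NeuroD-EGFP. All 3 NeuroD-EGFP mice lay above EGFP mouse 3, and 2 of them above EGFP mouse 2. The difference was -0.33 (standard error 0.37), and its direction turned to 0.12 without EGFP mouse 1. Without EGFP mouse 3 it was -0.64. Its other 2 probes were detected in at most 1 mouse.

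Ifih1, whose product MDA5 binds long double-stranded RNA, read 7.98, 7.72 and 7.10 with EGFP and 6.81, 6.78 and 7.03 with NeuroD-EGFP. The groups did not overlap, although EGFP mouse 3 and NeuroD-EGFP mouse 3 were close. The difference was -0.73 (standard error 0.24), a 1.66-fold higher mean with EGFP. EGFP mice 1 and 2 were nearer to each other here than in any other OAS or helicase member, and the difference without EGFP mouse 1 was -0.54.

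Dhx58 had 3 tested probes, and the brightest read 9.16, 7.56 and 6.997 with EGFP and 7.31, 6.97 and 6.46 with NeuroD-EGFP. NeuroD-EGFP mouse 1 lay above EGFP mouse 3 with each of these 3 probes, so none separated the groups. The differences were -0.99 (standard error 0.53), -1.09 (standard error 0.50) and -1.39 (standard error 0.64). Without EGFP mouse 1 they were -0.36, -0.48 and -0.66, and its remaining probe was detected in no mouse.

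Tlr3 read 6.27, 6.12 and 5.97 with EGFP and 6.13, 5.89 and 6.02 with NeuroD-EGFP. The 2 groups overlapped, with EGFP mouse 1 the highest and NeuroD-EGFP mouse 2 the lowest of all mice. The difference was -0.10 (standard error 0.15), and EGFP mouse 1 stood only 0.22 above the mean of the other EGFP mice. The Tlr3 probe was dim, with deposited intensities of 39.9 to 78.5, a range in which the offset of 16 added before the log compresses differences.

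**Figure D4:**
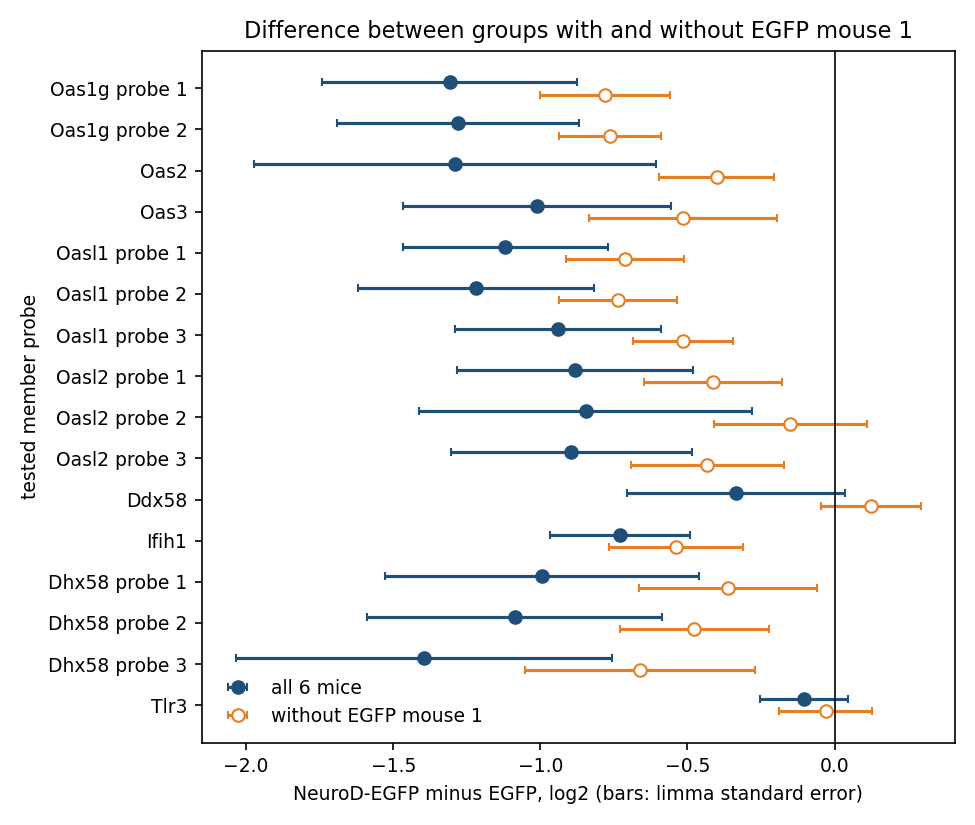
Difference NeuroD-EGFP minus EGFP of each tested member probe on the log2 scale with its limma standard error as bars, with all 6 mice (filled) and with the arrays renormalized without EGFP mouse 1 (open). Without that mouse the differences lie nearer to 0, between -0.78 for Oas1g and 0.12 for Ddx58.

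Markers of T cells and intraepithelial lymphocytes moved partly with the members. The 3 tested of 6 B and plasma cell markers averaged 0.45, -0.43 and 0.17 in EGFP mice 1 to 3. In NeuroD-EGFP mice 1 to 3 they averaged 0.21, 0.18 and -0.57, with a median difference of -0.07. A list of 10 T cell and intraepithelial lymphocyte markers had 6 tested genes, 5 of them with a negative difference, and averaged 0.58, 0.28 and -0.33 in EGFP mice 1 to 3 and 0.13, -0.06 and -0.60 in NeuroD-EGFP mice 1 to 3. Their summed normalized intensity, taken back from the log2 scale, was 2839 to 3903 with EGFP and 2772 to 3531 with NeuroD-EGFP. Of the defining markers, Cd3e read 8.09, 8.01 and 6.88, then 7.90, 7.37 and 6.72, Cd8b1 read 10.86 to 11.09 over the 6 mice with a difference of 0.11, and Cd8a was detected in no mouse. The part of these cells in the member values was not tested. Of 5 dendritic cell markers none was tested. All 4 listed markers of plasmacytoid dendritic cells were tested, 3 with a negative and 1 with a positive difference. Siglech read 8.82 to 9.16 with EGFP and 8.47 to 9.05 with NeuroD-EGFP. Bst2, which is also in the list of interferon effectors, differed by -0.69 (standard error 0.40), Tcf4 by -0.11 (standard error 0.16) and Ly6d by 0.33 (standard error 0.32).

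Pde12, which degrades oligoadenylates, differed by -0.24 (standard error 0.14), and Abce1, an ATPase of ribosome recycling, by -0.06 (standard error 0.17). Of the other 6 OAS genes only Oas1d, which in mice is an inactive homologue of the oocyte, was tested. It read 7.25, 7.63 and 5.46 with EGFP and 6.58, 5.21 and 5.76 with NeuroD-EGFP, highest in EGFP mouse 2 rather than EGFP mouse 1, a difference of -0.93 (standard error 0.59).

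The signalling genes around the RIG-I-like receptors stood near the median of all probes. Of 25 listed genes 21 were tested, 15 with a negative and 6 with a positive difference, and their median was -0.068. Mavs, the mitochondrial adaptor of Ddx58 and Ifih1, differed by 0.42 (standard error 0.29), Tbk1, the kinase below it, by -0.14 (standard error 0.15), and Irf3, its substrate, by 0.04 (standard error 0.15). Trim25, the ubiquitin ligase that acts on RIG-I, differed by -0.24 (standard error 0.15), and Cyld, a deubiquitinase that counters it, by -0.31 (standard error 0.14). Isg15, a ubiquitin-like modifier, differed by -1.40 (standard error 0.64), and the transcription factor Irf7 by -0.73 (standard error 0.40).

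The endosomal signalling genes were also centred near 0. Of 17 genes 12 were tested, 10 negative and 2 positive, with a median of -0.093. Ticam1, the adaptor of Tlr3, differed by 0.14 (standard error 0.23), and Unc93b1, which carries endosomal receptors to their compartment, by -0.29 (standard error 0.24). Tlr7, a sensor of single-stranded RNA, read 6.94, 6.07 and 6.39 with EGFP and 5.79, 5.92 and 5.94 with NeuroD-EGFP, without overlap, a difference of -0.58 (standard error 0.23). Map3k7 (TAK1), a kinase of this pathway, differed by -0.23 (standard error 0.13).

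Among 19 other proteins that bind double-stranded RNA, 16 were tested, 10 negative and 6 positive, with a median of -0.11. The interferon-induced kinase Eif2ak2 (PKR) differed by -0.59 (standard error 0.26), the editing enzyme Adar by -0.44 (standard error 0.20) and the nucleic acid sensor Zbp1 by -0.49 (standard error 0.24). The 7 tested DExD/H-box helicases of the list ranged from -0.27 for Ddx21 to 0.11 for Ddx3x.

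Upstream, few interferon genes were measurable. Of 18 ligand genes 3 were tested, all 3 with a positive difference, led by Ifnab at 0.54 (standard error 0.18), with Ifna1 at 0.32 (standard error 0.15). Ifna1 was detected in only 3 mice, the fewest that allow a test. It read 5.41, 5.05 and 5.26 with EGFP and 5.57, 5.61 and 5.52 with NeuroD-EGFP, so its sign may follow from the detection filter. The interferon alpha genes are close copies, so their probes may read one another. Ifnb1 was detected in no mouse and Ifng in at most 1. Of 12 receptor and ISGF3 genes 10 were tested, 7 negative and 3 positive, with a median of -0.16. Stat2 read 9.16, 8.14 and 7.73 with EGFP and 7.80, 7.81 and 7.60 with NeuroD-EGFP, a difference of -0.61 (standard error 0.34), and Irf9 differed by -0.30 (standard error 0.19). Ifnar2, a chain of the type I interferon receptor, differed by 0.35 (standard error 0.14) with its brightest tested probe, a sign that depended on which probe was brightest.

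Interferon effectors outside the OAS family had a median close to that of the members. All 12 tested genes of a list of 16 had a negative difference, with a median of -0.95. Rtp4, one of them, was detected in only 3 mice, and all its EGFP values lay above its NeuroD-EGFP values. Its sign may therefore follow from the detection filter. With only probes detected on all 6 arrays, the median was -0.93. Leaving EGFP mouse 1 out of the EGFP mean, without renormalizing the arrays, gave a median of -0.38 for the same 12 genes. Rsad2 (viperin) read 11.28, 9.58 and 8.41 with EGFP and 8.46, 7.58 and 7.05 with NeuroD-EGFP, a difference of -2.06 (standard error 0.70). Samd9l read 11.67, 10.67 and 10.999, then 10.25, 10.05 and 9.79, without overlap, a difference of -1.08 (standard error 0.27). No gene of any of these lists passed an adjusted p of 0.05 from limma.

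**Figure D5:**
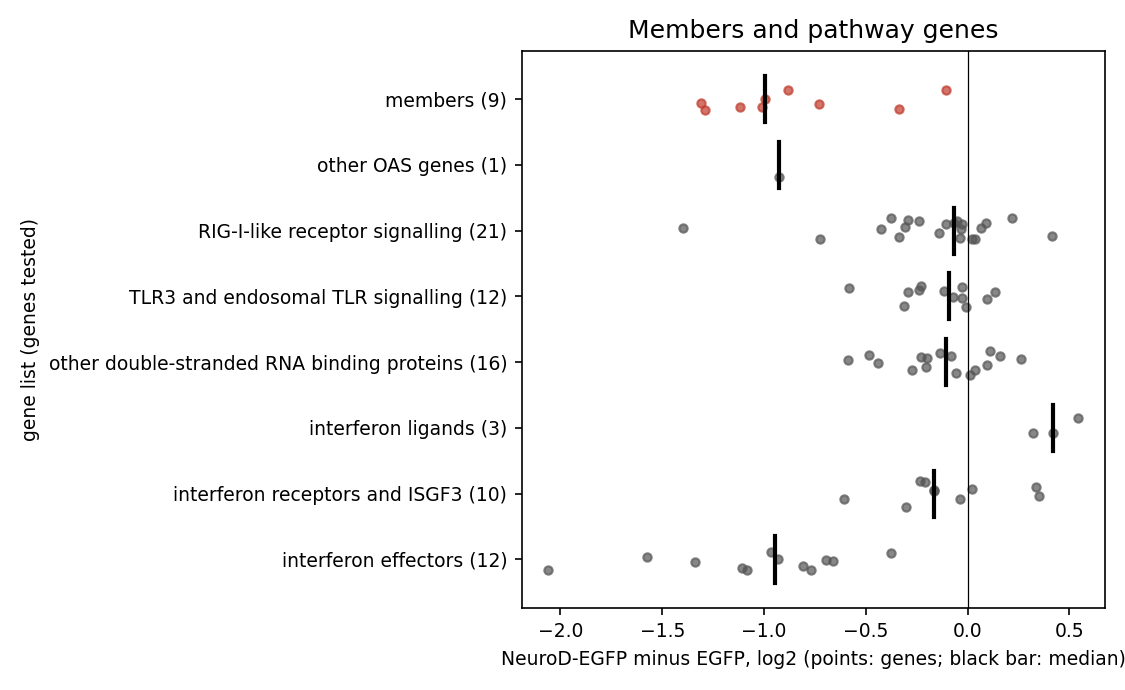
Difference NeuroD-EGFP minus EGFP on the log2 scale for each tested gene (points) of the members (red) and of 7 pathway lists (grey), with the median of each as a black bar and the number of tested genes in parentheses. The members and the interferon effectors have medians of -0.99 and -0.95, with Oas1d, the lone other OAS gene, beside them at -0.93, while the signalling lists centre near 0.

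The 8 other genes whose values followed the members' mean most closely over the 6 mice were Irf7, Irgm2, Ifi47, Mlkl, Igf2bp3, Stat2, Cmpk2 and B3gnt7. Likeness was the root mean square difference between the gene's centred log2 values and the members' centred mean, which was 0.098 for Irf7, 0.099 for Irgm2, 0.13 for Ifi47 and at most 0.15 for the others, against a median of 0.69 over 10768 genes. Irgm2 and Ifi47 encode interferon-induced GTPases, Mlkl the executor of necroptosis, Cmpk2 a mitochondrial nucleotide kinase, Igf2bp3 an RNA-binding protein and B3gnt7 a glycosyltransferase. Irf7 read 9.89, 8.68 and 8.30 with EGFP and 8.49, 8.27 and 7.93 with NeuroD-EGFP. Among the members, Oasl2 was nearest to the mean (0.051), followed by Oasl1 (0.15) and Oas3 (0.18), and Tlr3 was farthest (0.56), with Oas2 (0.48) next.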

How the data were processed

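Jejunum RNA of 6 mice (3 EGFP, 3 NeuroD-EGFP, grouped by the submitters' labels) was hybridized to Illumina Mouse WG-6 beadchips. The authors deposited intensities, from which the background had been subtracted, so that 24.4% to 26.1% of them per array lie at or below 0, and a detection p-value deposited beside each. The authors also deposited log2 values, which are log2 of these intensities with 4 in place of signals at or below 0. Neither table is scaled between arrays, and the scanner software is not given in the sources used here. Dose, time and protein concentration come from the methods.

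In R 4.3.3 with limma 3.58.1, neqc estimated the background from the detection p-values (normexp), added an offset of 16 and quantile-normalized the arrays. Probes detected (p-value under 0.05) on 3 or more of the 6 arrays were tested with lmFit and eBayes, and p-values were adjusted over all tested probes (Benjamini-Hochberg). The script was tested on simulated data. A gene is given by its tested probe of highest mean. Gene names came from the platform annotation, in which 34885 probes had 1 symbol, 18 several and 10378 none. Samples are called mice, with 1 array each. The labels do not say that samples of a group came from separate animals, so p-values measure the spread between these samples, which may be technical.

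The members and gene lists were chosen with earlier results of these data known. The text names all members, from each list the 2 genes with the lowest unadjusted p, genes up- or downstream of a member, and the 8 genes most like the members. Zbp1, Ddx21, Ddx3x, Siglech, Bst2, Tcf4 and Ly6d were named after their values were seen, as were the tissue markers. Promoters were compared with Biopython 1.88. A planned comparison of OAS proteins and the probe sequences were not used here. Alternatives covered background correction, offset, scaling, detection filter, replicate block, array weights, prior, the methods' t-test, the rule for several probes and leaving out each mouse. Some listed genes are not reported here.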

Additional observations from a re-analysis of the deposited data

How the results depend on the processing

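The 16 tested member probes were recomputed under the alternatives 254 times. Alternatives that changed only the detection filter, replicate block, prior or test left every difference as it was, so the direction could not change there. For the member probes the altered prior gave the same standard errors and adjusted p-values as the methods' t-test, so they are not separate checks. The direction was kept in 253, none passed an adjusted p of 0.05, and the exception was Ddx58, at 0.12 without EGFP mouse 1 and -0.64 without EGFP mouse 3, the ends of its range over left-out mice. The members' median difference ranged from -0.85 with an offset of 50 to -1.37 with array weights, and from -0.41 to -1.45 (without EGFP mouse 1 and without EGFP mouse 3) when a mouse was left out. With the authors' unscaled log2 values it was -1.36, where the median of all tested probes was itself -0.27 and 83.2% of them were negative. The span of the mice in the members' mean was 2.65 on those values, and lay between 0.82 and 1.97 with a mouse left out, the ends being EGFP mouse 1 and EGFP mouse 3. The member probes whose groups did not overlap numbered 7 to 14 when a mouse was left out, with 14 without EGFP mouse 3 and 12 without NeuroD-EGFP mouse 1, where fewer mice had to separate. The tested probes past an adjusted p of 0.05 numbered 0 under all other alternatives and 0 to 28 when a mouse was left out, with 28, none of them a member, without EGFP mouse 3. The lone pair left in a group is then assumed to vary like the other group.

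The labels do not say whether the mouse numbers shared by the groups pair the samples, and these values do not settle it. Same-numbered mice had correlations of their deviations of 0.302, -0.0903 and 0.165, and differently numbered mice had -0.269 to 0.0982. With the number as a replicate block 0 tested probes passed, as without it. Other genes also changed sign. Ifnar2 was -0.26 with an offset of 50 and lay between -0.71 (EGFP mouse 3 left out) and 0.36 (EGFP mouse 2 left out), because another of its probes became the brightest, and Abce1 ranged from -0.19 to 0.032 when a mouse was left out. The median of the interferon ligands, dim probes near background, was -0.000034 with no detection filter. The number of arrays and the dimness of Oas1a, Tlr3 and the interferon genes limit what these values can show.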
